A study of Mus musculus with 8 samples.

Results

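N6-methyladenosine (m6A) peaks on 326 genes were called in growth medium (GM) and not after 3 days in differentiation medium (3d DM), and the members described here are those peaks. A gene was selected on the measured peak calls: its symbol had at least 1 line in each of the 2 GM peak lists and none in either of the 2 3d DM lists. The members are the 1615 GM lines of these genes, 860 in GM replicate 1 and 755 in GM replicate 2, of 57762 GM lines and 112768 lines in all. Lines of a gene that shared exon bases were merged into distinct peaks, of which the 326 genes had 453 in replicate 1 and 412 in replicate 2. They make up 5.07% of the 6430 genes with lines in both GM lists. Of the other 6104 genes, 1115 had a line in 1 of the 3d DM lists and 4989 in both.

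C2C12 is a mouse myoblast line that divides without limit, here grown on collagen, so the replicates are samples of the same line and nothing states whether they came from separate cultures. GM cells were dividing at 50% confluence in medium with 10% fetal bovine serum, and 3d DM cells had passed 90% confluence before 3 days in 2% horse serum, which makes the line fuse into myotubes. Both states had 2 immunoprecipitated libraries, enriched with an antibody against m6A, and 2 input libraries of the same RNA without the antibody. Input RNA is given as a normalized signal per gene, and the floor of expression was set at a signal of 25.1, which is 2 cpm of the column total.

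m6A is placed on messenger RNA by a methyltransferase complex around METTL3 and METTL14, can be removed by FTO and ALKBH5, and is read by proteins such as the YTH family. It sits mostly at DRACH sequences, often around the stop codon and in long exons, and methylated messages are often less stable. In myoblasts that leave the cell cycle, the transcripts of the division machinery fall while those of the contractile apparatus rise. A peak can be called only on RNA that is present, so absence from a 3d DM list can accompany either less RNA or less methylation.

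The sequences that carried shared GM peaks on 7 of these genes are shown to make plain what a peak is in these lists. Each is the stretch, at most 300 bases, that lay in a peak of both GM replicates and within a coding exon, read 5′ to 3′ on the transcript's strand from mm10. Capitals mark DRACH, which is A, G or T, then A or G, then AC, then A, C or T. The first is *Osbp2*, the only gene among the 12 with the largest input differences whose shared peak carried the coding label alone and whose shared bases lay in a single exon. *Ninl*, *Fbxl7* and *Ticrr* met the same terms among the 10 genes expressed in both states with the strongest shared peaks. *Gzme*, *Blnk* and *Mertk*, which also had large input differences, were added after their values were seen.
Osbp2, chr11:3705495-3705556, minus strand: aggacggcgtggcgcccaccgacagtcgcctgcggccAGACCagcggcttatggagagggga
Ninl, chr2:150949695-150949994, minus strand: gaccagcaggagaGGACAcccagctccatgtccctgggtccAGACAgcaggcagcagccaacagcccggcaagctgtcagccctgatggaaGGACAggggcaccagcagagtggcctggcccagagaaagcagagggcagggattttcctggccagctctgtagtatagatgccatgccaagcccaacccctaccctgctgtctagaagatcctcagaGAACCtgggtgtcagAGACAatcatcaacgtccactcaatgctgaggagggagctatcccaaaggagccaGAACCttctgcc
Fbxl7, chr15:26552634-26552694, minus strand: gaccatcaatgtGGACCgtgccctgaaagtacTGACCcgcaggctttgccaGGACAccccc
Ticrr, chr7:79693844-79694084, plus strand: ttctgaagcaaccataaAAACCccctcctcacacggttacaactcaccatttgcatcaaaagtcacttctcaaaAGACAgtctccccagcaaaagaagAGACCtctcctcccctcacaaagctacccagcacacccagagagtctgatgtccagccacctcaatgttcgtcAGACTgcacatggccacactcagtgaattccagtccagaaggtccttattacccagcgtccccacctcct
Gzme, chr14:56117744-56117833, minus strand: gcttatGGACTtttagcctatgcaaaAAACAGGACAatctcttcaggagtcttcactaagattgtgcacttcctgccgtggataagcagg
Blnk, chr19:40937651-40937727, minus strand: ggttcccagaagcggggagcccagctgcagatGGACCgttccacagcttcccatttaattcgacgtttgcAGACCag
Mertk, chr2:128801371-128801430, plus strand: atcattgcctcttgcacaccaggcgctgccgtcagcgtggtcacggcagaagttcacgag

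The 300 bases of *Ninl*, a centrosomal protein gene, held 6 DRACH sites. The whole peak they belong to was enriched 26.2-fold over input in replicate 1, where it reached over several exons, and 11-fold in replicate 2. The 241 bases of *Ticrr*, which acts in the firing of replication origins, held 4 sites within peaks enriched 12-fold and 8.09-fold. The 90 bases of *Gzme*, a granzyme, held 3 sites in a peak enriched 3.01-fold and 2.54-fold. The 60 shared bases of *Mertk*, a receptor tyrosine kinase, held none, which says only that these letters are not in that stretch. GGACT, a frequent form of the motif, was present in the stretch of *Gzme* alone among the 7.

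Peaks of the 326 genes were weaker and narrower than the other GM peaks, and since the lists chose the members this is a description without a test. The median fold enrichment of a distinct peak was 3.58 in replicate 1 and 3.52 in replicate 2, against 4.52 and 4.11 on the other 6104 genes. Its median P value was 0.000209 and 0.000224, against 7.08e-07 and 5.89e-07, and its median length was 180 and 179 bases, against 300 and 275. The genes with a line in 1 3d DM list stood nearer to the members. Their median fold was 4.325 and 3.91, their median P value 6.84e-05 and 7.08e-05, and their median length 209 and 184 bases. The lowest P was at most 1e-05 in both GM lists on 59 of the 326 genes (18.1%) and on 69.9% of the others. Most members had a single peak. In replicate 1, 231 genes (70.9%) had 1 distinct peak, against 46.3% of the others, and in replicate 2 it was 258 genes (79.1%) against 52.3%. The most on a gene was 6, on *Tnk2*, a non-receptor tyrosine kinase, in replicate 1.

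The 2 GM replicates did not always mark the same place. On 270 genes (82.8%) a peak of replicate 1 shared at least 1 base with a peak of replicate 2, against 96.3% of the others, and on 56 genes no peak was shared. Of the distinct peaks, 67.3% in replicate 1 and 74.0% in replicate 2 were shared. Just inside the rule stood *Cfap20* and *Dcps*, whose lowest P in the weaker GM list was 0.00955 and 0.00891. Just outside stood *Cenpu* and *Rccd1*, each kept out by a single 3d DM line, with P values of 0.00851 and 0.0055. Absence was judged by gene symbol, and 2 members, *Gm45208* and *Npcd*, had a 3d DM line under another symbol, *Praf2* and *Cbx6*, over a GM peak, so for these the label of methylation in GM only does not hold by position.

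The membership moved with the threshold and with each immunoprecipitated library. When lines with a P over 1e-05 were dropped from all 4 lists the rule gave 348 genes, of which 59 were among the 326. Without GM replicate 1 or 2 it gave 655 and 712 genes, and without 3d DM replicate 1 or 2 it gave 1205 and 562. The 4 sets with a library left out contain the 326 genes by construction.

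The peaks of these genes lay closer to the stop codon and more often in the 3′ untranslated region (UTR) than the other GM peaks, in both replicates. The 3′ UTR alone was the label of 38.4% of distinct peaks in replicate 1 and 39.8% in replicate 2. On the genes with a line in 1 3d DM list it was 33.8% and 34.3%, and on all other genes 27.6% and 27.4%. The 5′ UTR was touched by 3.09% and 2.18% of the members' peaks and by 6.10% and 6.11% of the others. Peaks within the coding sequence alone were 39.5% and 32.5% of the members' peaks, against 41.5% and 39.0%. The label that spans the stop codon, coding sequence with 3′ UTR, was less frequent, on 19.0% and 25.5% of the members' peaks against 24.8% and 27.5%. Measured along the transcript, the middle of the peak was within 200 nt of the last coding base for 32.8% and 39.2% of the members' peaks and for 23.4% and 27.1% of the others. Since the members' peaks were also shorter and fewer per gene, which moves with these shares, the part of peak length and number was not tested.

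**Figure D1:**
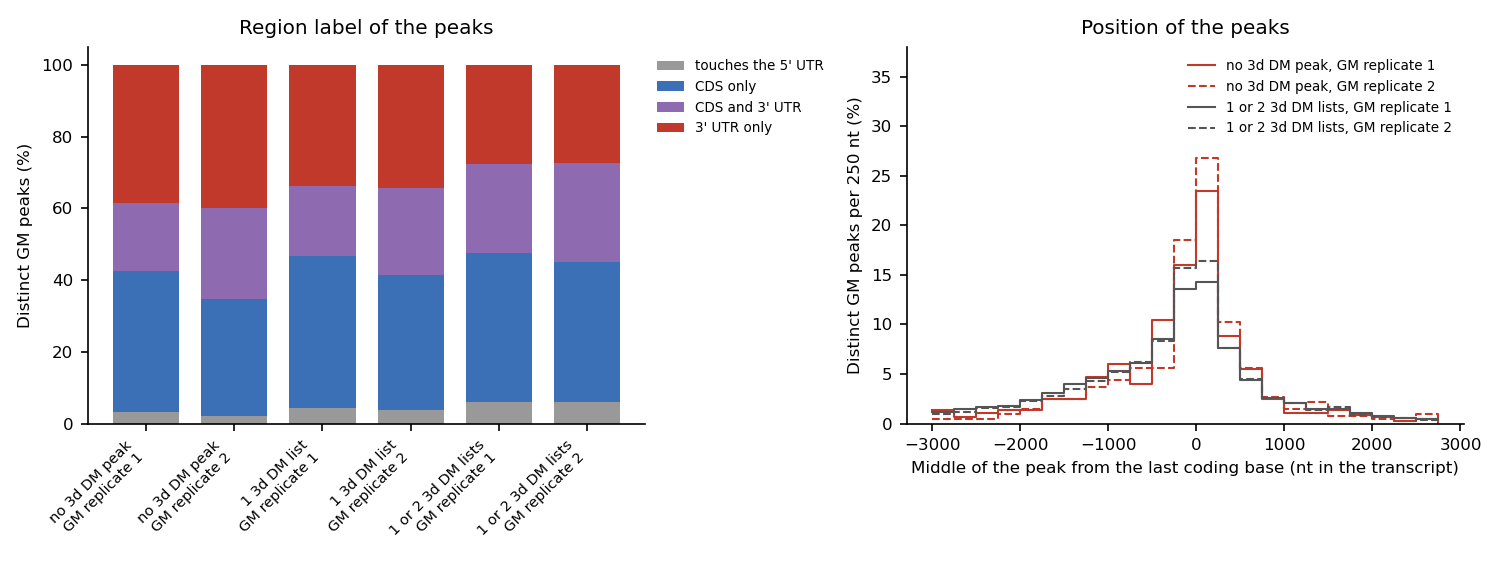
Left, region label of distinct GM peaks in percent for genes without a 3d DM peak, with a peak in 1 3d DM list and with peaks in 1 or both 3d DM lists, for each GM replicate. Right, distance in nt along the transcript from the last coding base to the middle of the peak, in percent of peaks per 250 nt, where the red lines of the genes without a 3d DM peak stand above the gray lines around 0, with 32.8% and 39.2% against 23.4% and 27.1% within 200 nt.

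DRACH was as dense in these peaks as in the other GM peaks. The members' peaks held 23.2 and 22.9 motifs per kb in replicates 1 and 2, the others 23.2 and 22.9, and the remainder of the members' transcripts 19.4 in both. With the central A and C exchanged, the motif came 18.9 and 17.8 times per kb in the members' peaks and 17.6 times per kb in the remainder of their transcripts in both. GGACT, itself a DRACH site, came 1.48 and 1.65 times per kb in the members' peaks, 1.34 and 1.45 in the others, and 1.12 in the remainder of the members' transcripts in both. In windows of 150 nt on the transcript strand, DRACH was present in 97.0% and 96.9% of those in members' peaks and in 93.7% and 93.8% of those outside. A sequence this common marks no site by itself.

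Set beside the input libraries, most of the 326 genes were expressed in both states and few were silent in 3d DM. Signal reached the floor in all 4 input libraries for 249 genes (76.4%), and for 25 genes (7.67%) it did so in the pair of GM libraries while both 3d DM libraries stayed under it. A further 12 genes were under the floor in all 4 libraries, 1 was under it in GM alone, 37 were mixed between replicates, and 2 had no entry in the table. Of the other 6104 genes with peaks in both GM lists, 96.2% were expressed in all 4 libraries and 0.279%, 17 genes, were silent in 3d DM. The mirror set, 211 genes with lines in both 3d DM lists and none in GM, had 66 genes (31.3%) silent in the state without peaks. These shares are descriptions, because each peak list was called against an input library of its own state, so the input is not wholly independent of the calls.

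**Figure D2:**
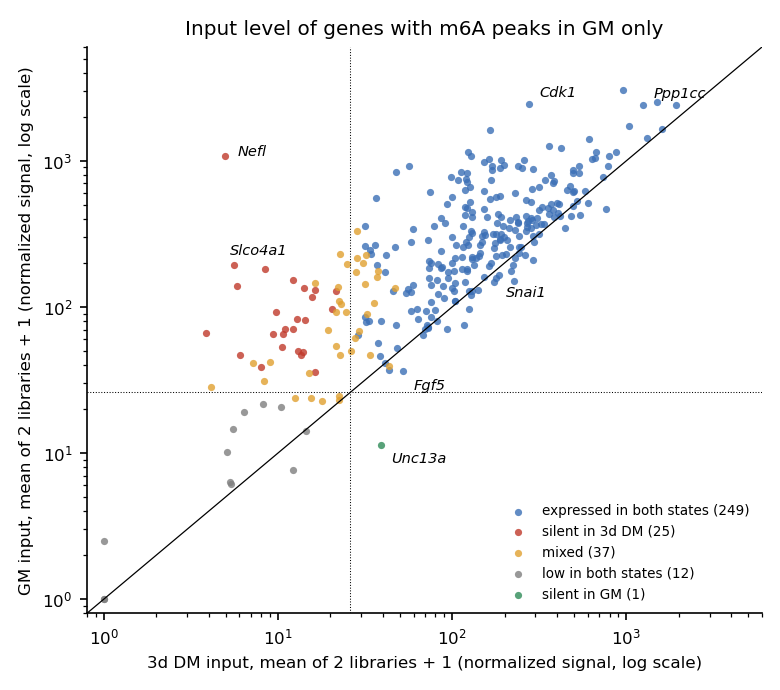
Input signal of 324 of the 326 genes, mean of 2 libraries plus 1 on log axes, in 3d DM (horizontal) and GM (vertical), coloured by class, with the line of equality and dotted lines at the floor of 2 cpm. Most of the 249 genes expressed in both states lie above the line of equality, the 25 silent in 3d DM lie to the left of the floor, and *Unc13a* lies below it in GM.

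Input RNA of these genes was mostly higher in GM. The tests used limma on log2(signal + 1) over 11406 genes with at least 2 cpm in 2 of the 4 libraries, with Benjamini-Hochberg adjustment over all of them. Of the 304 members tested, 118 (38.8%) were higher in GM at an adjusted p under 0.05, against 9.96% of all tested genes, and 1 was lower, against 7.01%. Without a filter on low values, over 27179 entries, 1 member was higher, and the share of all entries called in that fit is not given here. The 2 GM values stood above both 3d DM values in 215 members (70.7%), against 37.0% of all tested genes, and below both in 5 (1.64%), against 16.8%. Some members passed the filter through GM alone, so the count was repeated on the 10212 genes with at least 2 cpm in all 4 libraries. There, 73 of 249 members (29.3%) were higher in GM, against 8.11% of all, and 0 were lower, against 4.13%, also at an unadjusted p under 0.05 with limma. GM values were above both 3d DM values in 166 of the 249 members (66.7%), against 37.3%, and below both in 4 (1.61%), against 14.1%.

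The median log2 fold change of the 304 members, GM minus 3d DM, was 0.97, and that of all tested genes was 0.22. All 4 columns sum to nearly the same total, and a single unnamed entry took 24.4% and 33.2% of it in GM and 41.3% and 25.6% in 3d DM. Rescaling by median-of-ratios factors brought the median of all genes to 0.01 and that of the members to 0.76. There, 122 members were higher and 3 lower, given without the share of all genes called in that fit. The members' share of the total was 0.958% and 0.970% in the GM libraries and 0.381% and 0.571% in the 3d DM libraries, and the groups did not overlap (two-sided exact permutation test, p = 0.333, the smallest that 2 libraries against 2 allow). Without the largest entry the shares were 1.27% and 1.45% in GM against 0.649% and 0.767% in 3d DM.

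Single libraries weighed on these calls. The counts that follow are given without the share of all tested genes called in the same fits. Whether the loss of calls was particular to the members was not tested. Without GM replicate 2 there were 78 members higher in GM, without 3d DM replicate 2 there were 71, and without 3d DM replicate 1 only 7, in fits that take the lone library to vary like the other group. These 7 were *Nefl*, *Slco4a1*, *Osbp2*, *Cdk1*, *Plk1*, *Melk* and *Uhrf1*, named here after their values were seen. Standard errors (SE) followed the trend over all genes and hardly a gene's own replicates, so adjusted p-values do not measure the spread of its 2 libraries, and they cover only differences between these samples, which may be technical. In bulk RNA, fewer cells of a kind and less RNA per cell cannot be told apart.

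Absence from the 3d DM lists was more frequent where 3d DM input was low and where input was lower than in GM. Among genes with lines in both GM lists, the members were 58 of the 171 genes under 2 cpm in 3d DM (33.9%). The share was 15.5% from 2 to 5 cpm, 10.2% from 5 to 10, 6.28% from 10 to 20, 2.77% from 20 to 50 and 0.987% from 50 to 100, and 0.472%, 4 of 847 genes, above. By the change of the input, members were 51.1% of the 47 genes with a log2 fold change of at least 3, 27.3% of those from 2 to 3, 10.2% from 1 to 2, and 1.64% of those from -1 to 0. Where the log2 fold change was within 0.5 of 0, members were still 6.54% of genes from 2 to 5 cpm and 6.88% from 5 to 10. There the share was 3.09% from 10 to 20 cpm, 2.59% from 20 to 50, 0.593% from 50 to 100 and 0.813% above. Only 4 such genes lay under 2 cpm, and 2 of them were members. The signal is not divided by gene length, so it is the amount of input on a gene and not a transcript number.

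**Figure D3:**
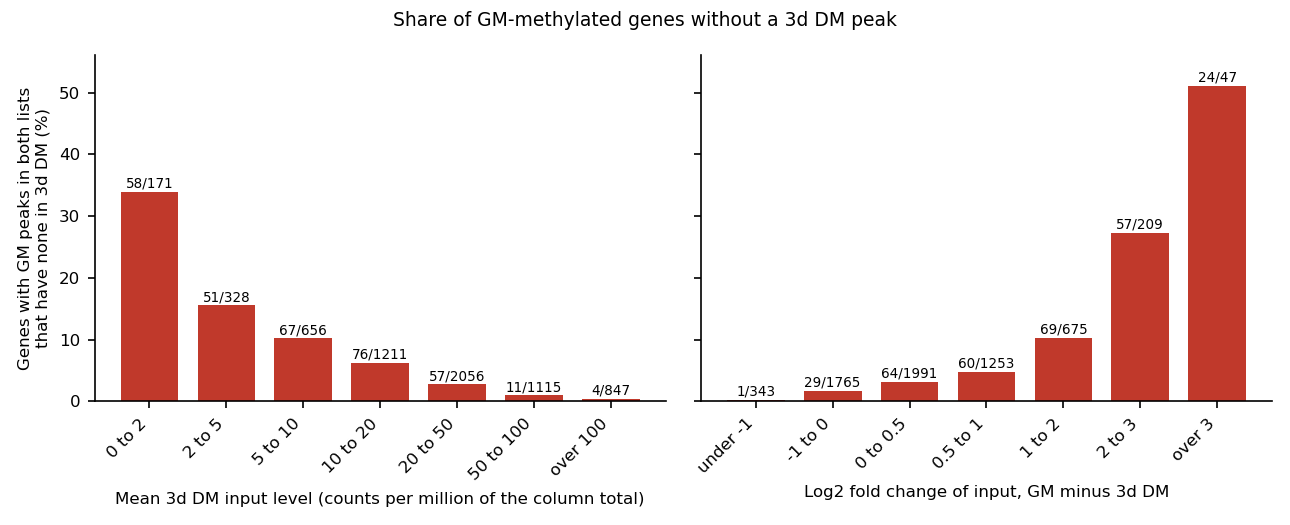
Genes with peaks in both GM lists, binned by mean 3d DM input in cpm of the column total (left) and by log2 fold change of the input, GM minus 3d DM (right), with the percent that had no 3d DM peak and, above each bar, those genes out of all in the bin. The share falls from 33.9% under 2 cpm to 0.472% above 100 cpm and rises to 51.1% at a log2 fold change over 3.

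Among the 25 genes silent in 3d DM, the GM signal ran from 28.1 to 943 in replicate 1 and from 27.1 to 1200.2 in replicate 2, while the highest 3d DM values were 20.1 and 22.1. These genes were put together by their input and entered the tested set through GM alone, so their differences are given as a description, with no test. *Nefl*, the neurofilament light chain, had the lowest peak P values of any member, 1.26e-95 and 2e-44. Its input read 943 and 1200.2 in GM against 2.74 and 5.24 in 3d DM. Its log2 fold change was 7.78 ± 0.54 (SE), the largest of the members tested. *Slco4a1*, an organic anion transporter, had 234 and 152 in GM against 4.94 and 4.29 in 3d DM, a log2 fold change of 5.08 ± 0.62. Both genes held a peak shared by the GM lists that reached the 3′ UTR. The GM libraries of each were far above its 3d DM libraries.

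*Celf4*, an RNA-binding protein of the CELF family, read 184 and 92.3 in GM against 2.85 and 6.80 in 3d DM, and its 3′ UTR peak was enriched 17.1-fold in replicate 1 and 4.34-fold in replicate 2. *Igsf5* read 69.4 and 62.2 in GM against 0.241 and 5.45 in 3d DM. *Gzme* read 255 and 108 in GM against 4.25 and 10.6 in 3d DM. As a ratio, its GM replicates lay further apart than those of *Igsf5*, and its 3d DM replicates closer together. The silent group also held *Dkk2*, a secreted regulator of Wnt signalling, at 132 and 133 in GM against 8.17 and 18 in 3d DM, and *Sprr1a* at 122 and 183 in GM against 9.09 and 13.3 in 3d DM. Their log2 fold changes were 3.34 and 3.64. *Fgf7* had the nearest levels of those named here, with 42.1 and 27.1 in GM against 10.6 and 20.2 in 3d DM. The strongest shared peaks of the group were on *Add2*, a membrane skeleton protein, at 16.6-fold and 21.1-fold, and on *Camk1d*, a calmodulin-dependent kinase, at 19.2-fold and 11.7-fold. They were named after their values were seen.

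The other genes with the largest input differences kept signal in 3d DM. *Plaur*, the urokinase receptor, had 521 and 1153 in GM against 32.6 and 61.0 in 3d DM, a log2 fold change of 4.09 ± 0.48 (limma adjusted p = 1.05e-15). *Id3*, an inhibitor of the DNA binding of myogenic factors, had 573 and 1262 in GM against 31.8 and 79.2 in 3d DM. Replicate 2 was the higher GM library for both. *Blnk*, an adaptor best known in B cells, had 788 and 322 in GM against 30.7 and 39.9 in 3d DM, with replicate 1 the higher. *Osbp2*, an oxysterol-binding protein, had 320.5 and 394 in GM against 26.9 and 34.0 in 3d DM. In GM, *Mcm10* was at 243 and 413 and *Mertk* at 135 and 156. Each was under the floor in 1 3d DM library, and their log2 fold changes were 3.58 and 3.54. None of these groups overlapped. All passed the test, which was a condition for being named here.

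Genes of the division cycle were the largest group named by function. Of the 46 genes of a list of DNA replication and S phase with lines in both GM lists, 12 (26.1%) had no 3d DM line, against 5.07% of all such genes. All 12 were tested and all were higher in GM, with a median log2 fold change of 2.58. Of the other 34, which kept a 3d DM line, 30 were higher as well, so the input difference was not particular to the genes without a 3d DM peak. Of all genes with lines in both GM lists, 27.3% had no 3d DM line at a log2 fold change from 2 to 3, and 10.2% from 1 to 2. Whether the share of this list or of those below differs from that of genes with a like input change was not tested. *Uhrf1*, which maintains DNA methylation, read 1436 and 1798 in GM against 115 and 211 in 3d DM (log2 fold change 3.36 ± 0.44, limma adjusted p = 2.46e-12). *Mcm5* and *Mcm2*, subunits of the replicative helicase, read 825 and 1461, and 788 and 1264, in GM, and 95.1 and 149.7, and 108 and 214, in 3d DM. The 2 states were apart for all 3 genes, although the helicase genes differed between GM replicates.

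Of 83 genes of mitosis and the kinetochore with lines in both GM lists, 22 (26.5%) had none in 3d DM, and 21 of the 22 were higher in GM, with a median log2 fold change of 2.68. Of the 61 that kept a 3d DM line, 57 were higher. *Cdk1*, the kinase that drives entry into mitosis, read 2301 and 2619 in GM against 193 and 360 in 3d DM, a log2 fold change of 3.21 ± 0.43 (limma adjusted p = 6.6e-12). Its GM peaks were among the weaker ones by fold, at 1.52-fold and 1.59-fold, but not by peak P value, at 1.62e-06 and 3.02e-09. *Plk1* read 964 and 1196 in GM against 76.6 and 178 in 3d DM. *Aurka*, another mitotic kinase, read 684 and 872 in GM against 45.1 and 149.9 in 3d DM, and its peak across the stop codon was enriched 3.66-fold and 6.34-fold over 545 shared bases. *Bub1*, of the spindle checkpoint, read 816 and 850 in GM against 49.0 and 172 in 3d DM. In every one of the 4, the higher 3d DM library was replicate 2, and it stayed under both GM libraries. Replicate 2 was the higher 3d DM library for the typical gene too, with log2 median-of-ratios factors of 0.14 against -0.34 in replicate 1.

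Of 31 genes of DNA repair and recombination with lines in both GM lists, 7 (22.6%) had none in 3d DM, and all 7 were higher in GM. Among the 7, *Palb2* and *Ung* were silent in 3d DM and entered the test through GM alone. Of the 24 that kept a 3d DM line, 11 were higher. *Rad18*, a ubiquitin ligase of post-replication repair, read 201 and 248 in GM against 17.5 and 44.2 in 3d DM. *Polq*, a polymerase of end joining, read 162 and 221 in GM against 26.1 and 46.1 in 3d DM. Its strongest peaks were enriched 20.1-fold and 11-fold, but no peak was shared between its GM lists. *Rad51ap1* and *Topbp1* had log2 fold changes of 2.83 and 1.99 and passed the test, which *Topbp1* did in only 2 of the 4 fits with a library left out.

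**Figure D4:**
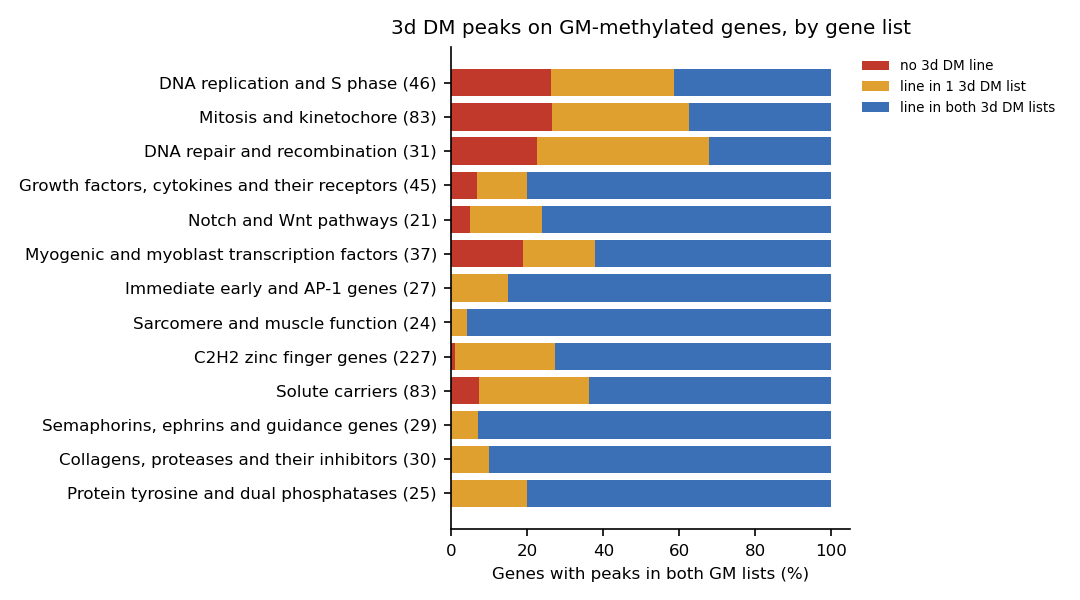
For each of the gene lists shown, all with at least 20 genes with lines in both GM lists (number in brackets), the percent with no 3d DM line, with a line in 1 3d DM list and with lines in both. The replication, mitosis and repair lists have the largest shares without a 3d DM line, at 26.1%, 26.5% and 22.6%, and the sarcomere list has none.

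Of 37 transcription factors of myogenic cells and myoblasts with lines in both GM lists, 7 (18.9%) had none in 3d DM: *Id1*, *Id2*, *Id3*, *Msx2*, *Myf5*, *Snai1* and *Twist2*. Of the 6 tested, 5 were higher in GM, while of the 29 tested that kept a 3d DM line 5 were higher and 8 lower. *Myf5*, a determination factor of the myogenic lineage, read 397 and 355 in GM against 58.5 and 121 in 3d DM, a log2 fold change of 2.14 ± 0.48 (limma adjusted p = 0.000118). Its peak covered 625 shared bases and was enriched 12.2-fold and 4.26-fold. *Twist2* read 192 and 321 in GM against 34.9 and 56.4 in 3d DM, and *Id2* read 471 and 657 in GM against 139 and 215 in 3d DM. Both passed the test, but *Id2* lost the call with any 1 of the 4 libraries left out, and *Twist2*, like *Myf5*, with 1 of them. *Snai1*, a repressor of the Snail family, read 133 and 179 in GM against 129.9 and 223 in 3d DM, so the states overlapped, while its 3′ UTR peak was enriched 3.24-fold and 4.96-fold in GM. *Msx2* was under the floor in all 4 libraries, at 9.44 and 9.03 in GM.

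Other lists held few members. Growth factors, cytokines and their receptors had 3 of 45, *Fgf5*, *Fgf7* and *Gdf15*, and only *Gdf15* passed the test, at 286 and 431 in GM against 29.9 and 126 in 3d DM. Solute carriers had 6 of 83, of which 3 were higher in GM, *Slco4a1*, *Slc48a1* and *Slc9a3r1*, while of the 74 tested that kept a 3d DM line 8 were higher and 2 lower. *Slco4a1* entered the test through GM alone, and *Slc48a1* and *Slc9a3r1* lost the call with any 1 library left out. Notch and Wnt genes had 1 of 21 (*Dkk2*), Hox genes 1 of 11 (*Hoxa10*), ion channels 1 of 13 (*Cacna1a*) and C2H2 zinc finger genes 2 of 227, of which *Zfp367* passed the test, though in none of the fits with a library left out, and *Zbtb48* did not. The zinc finger share, 0.881%, was under the 5.07% of all genes with GM peaks. No member was among 27 immediate early genes, 24 sarcomere and muscle genes, 29 semaphorin, ephrin and guidance genes, 30 collagens, proteases and inhibitors or 25 tyrosine and dual phosphatases with lines in both GM lists. Of those 24 sarcomere genes, 23 had lines in all 4 lists.

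For the 249 genes with input in both states, peaks were called in GM only although RNA was measured in both. Their absolute log2 fold change was under 0.5 in 82, from 0.5 to under 1 in 66 and at least 1 in 101. The 10 with the strongest shared GM peaks by fold were *Ninl*, *Eif2d*, *Fgf5*, *Itpk1*, *Fbxl7*, *Hspa1l*, *Alkbh8*, *Ppp1cc*, *Ticrr* and *Mcf2l*. Of these, only *Ticrr* passed the input test, at 184 and 274 in GM against 28.2 and 38.5 in 3d DM. *Ninl* read 112 and 115 in GM against 64.6 and 114 in 3d DM. *Eif2d*, a translation initiation factor, read 319.6 and 277 in GM against 147 and 247 in 3d DM, with peaks of 11.4-fold and 20.3-fold. *Fgf5*, a fibroblast growth factor, read 39.97 and 31.1 in GM against 52.0 and 50.7 in 3d DM. Its 3d DM libraries both stood above its GM libraries (log2 fold change -0.53 ± 0.59, limma adjusted p = 0.649). The peak of *Fgf5* was enriched 14.9-fold in both GM replicates over 299 shared bases around the stop codon, and no 3d DM line bore its name.

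*Alkbh8*, which modifies transfer RNA, read 60.8 and 80.3 in GM against 55.4 and 87.5 in 3d DM, and *Hspa1l* read 39.9 and 40.1 in GM against 35.8 and 44.3 in 3d DM. The states overlapped in both genes, and their peaks were enriched 12.2-fold and 11-fold, and 14-fold and 11.7-fold. *Hspa1l* has close relatives among the heat shock genes, so reads may be shared between them. *Ppp1cc*, a catalytic subunit of protein phosphatase 1, read 2476 and 2358 in GM against 1039 and 1462 in 3d DM (limma adjusted p = 0.0973), and its peak touched the 5′ UTR. *Itpk1*, *Fbxl7* and *Mcf2l* had GM values above both 3d DM values, with log2 fold changes of 1.29, 0.85 and 1.29 that did not pass the test.

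A high fold did not always come with a low P value. The P values of *Alkbh8* were 0.00115 and 0.00229 and those of *Hspa1l* were 0.000372 and 0.00135. Some values recurred: in GM replicate 1, *Fbxl7*, *Hspa1l*, *Pag1* and *Tenm4* each had a peak at 14-fold with a P of 0.000372. A rank by fold is thus not a rank by P, and the depth behind these peaks is unknown. Among the 82 genes whose input changed by less than 0.5, the lowest P was at most 1e-05 in both GM lists for 5, and *Usp39*, *Snai1*, *Mrpl49* and *Nol6* among them were named after their values were seen. *Mrpl49*, a protein of the mitochondrial ribosome, read 472 and 542 in GM against 295 and 444 in 3d DM, and its groups did not overlap. *Usp39*, a splicing factor, read 541 and 708 in GM against 341 and 571 in 3d DM, and *Nol6*, a nucleolar protein, read 341 and 536 in GM against 322 and 481 in 3d DM. For *Usp39* and *Nol6* the states overlapped.

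**Figure D5:**
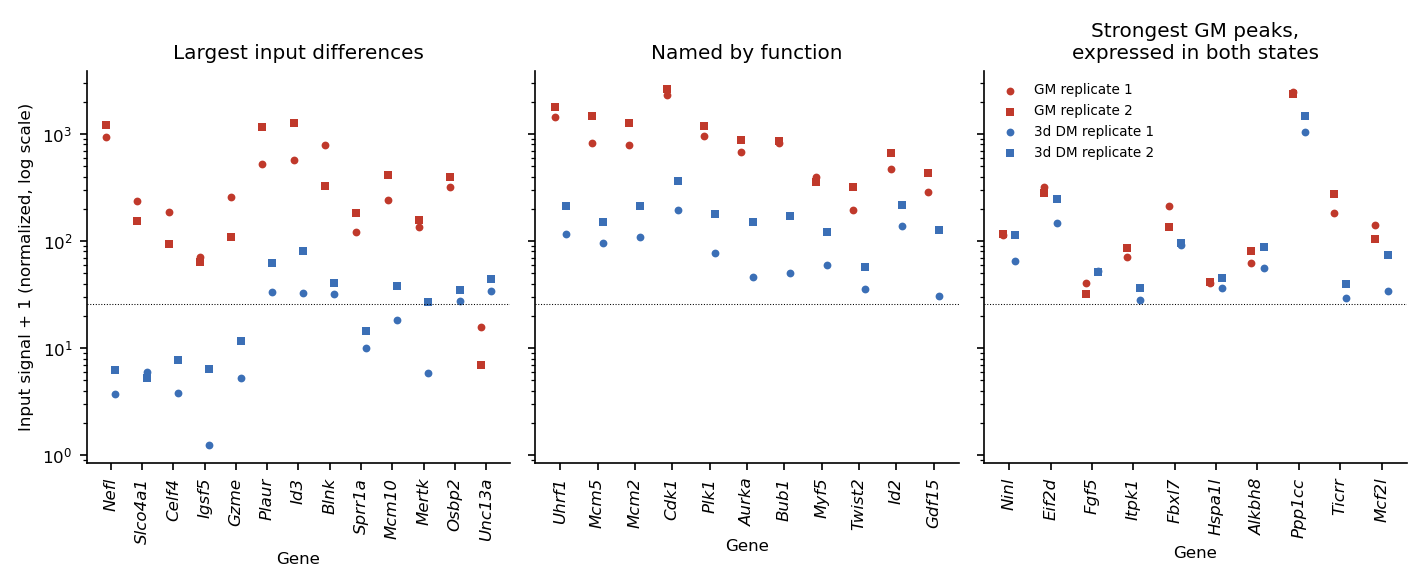
Normalized input signal plus 1 (log axis) in each of the 4 input libraries, red for GM and blue for 3d DM, with circles for replicate 1, squares for replicate 2 and a dotted line at the floor of 2 cpm. The GM points of the first 12 genes at left and of all genes in the middle stand above the 3d DM points, while at right the points of *Ninl*, *Hspa1l* and *Alkbh8* overlap and those of *Fgf5* are higher in 3d DM.

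Input lower in GM was rare among the members. *Unc13a*, which primes synaptic vesicles, was the only one to pass the test, which it entered through 3d DM alone, at 14.8 and 6.03 in GM against 33.3 and 42.9 in 3d DM (log2 fold change -1.88 ± 0.68, limma adjusted p = 0.036), and it lost the call with a pseudocount of 0.1, with the replicate block and without GM replicate 2 or either 3d DM replicate. *Rhbdf1*, *Npr2*, *Pik3cb* and *Fgf5* also had both 3d DM values above the GM values and did not pass. Of the 12 genes under the floor in all 4 libraries, *Hist1h2af* and *Npcd* were listed at practically 0 in every library although their GM peaks had P values from 2.51e-18 to 9.55e-10. Histone genes share near-identical sequence and the table may have left out or split such reads, so the input of *Hist1h2af* is uncertain. For *Npcd*, a 3d DM line named *Cbx6* lay over a GM peak, and why its input was near 0 was not tested.

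Myotube markers followed the labels. All 8 myotube markers tested, *Myog*, *Mymk*, *Mymx*, *Myh3*, *Ckm*, *Acta1*, *Tnnt3* and *Atp2a1*, were lower in GM by limma, and their summed signal was 5754 and 1257 in the GM libraries and 101831 and 140700 in 3d DM. The 2 GM libraries thus differed in myotube transcripts, and the part of this in the members' values was not tested. Of 6 myoblast markers, *Mki67* and *Myf5* were higher in GM, *Des* and *Itga7* lower, and *Myod1* and *Cdh15* passed in neither direction. Adipocyte markers were at practically 0, endothelial markers summed to at most 1.499, and the blood markers to 73.0 and 13.1 in GM against 7.72 and 12 in 3d DM. Fibroblast markers summed to 527 and 53.3 in GM against 478 and 749.5 in 3d DM, mostly *Dcn*.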

How the data were processed

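MeRIP-seq and input RNA-seq of C2C12 myoblasts were analysed from the processed files. Reads were trimmed and placed on mm10 by the authors using HISAT2 (version 2.1.0), and exomePeak then compared every immunoprecipitated sample with its own input to find peaks. Deposited peak lines carry a p-value and an enrichment ratio (fold) over input. The authors' expression table, made with edgeR, holds a TMM-normalized signal from which reads could not be recovered, so depth is unknown and no counting error is given. How the counting treated strand or shared reads is not given in the sources used here.

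The members and lists were chosen with earlier results of these data known. Symbols were matched to Entrez entries through RefSeq names and GENCODE M21 transcripts, for 324 of 326 genes. The input comparison was a limma fit (limma 3.58.1 in R 4.3.3) of log2(signal + 1) with an intensity trend. The fit was tested on simulated data first. Positions and motifs came from GENCODE M21 and the mm10 genome (pysam 0.24.0, Python 3.11.15), permutation tests from SciPy 1.17.1, with BED starts shifted to count from 1. Named genes were the 12 with the largest log2 fold change past the test, up to 8 with the smallest, taken only where lower in GM, which left 1, the 10 expressed in both states with the strongest shared peaks, and up to 4 of each list by adjusted p. A few items are not reported here. Alternatives were other peak thresholds, filters, pseudocounts of 0.1 and 4, scalings, floors, the replicate block and each library left out.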

Additional observations from a re-analysis of the deposited data

How the results depend on the processing

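The number of genes with peaks in GM only stayed within 1.5 times of 326 under other peak thresholds (348 at P of at most 1e-05, 286 at a fold of at least 4), with a shared base required (270) and by position (387), and ran from 562 to 1205 with an immunoprecipitated library left out (655 without GM replicate 1, 712 without GM replicate 2). Members higher in GM numbered 73 with 2 cpm required in all 4 libraries and 1 without a filter, and from 7 to 88 with an input library left out. Members lower in GM numbered 0 under these filters, with 2 cpm in 3 libraries, with a pseudocount of 0.1 and with 3 of the 4 libraries left out in turn, so from 0 to 1, and 3 under either rescaling. The median log2 fold change kept its sign throughout, from 0.69 to 1.23 with a library left out. Genes silent in 3d DM numbered 47 at a floor of 5 cpm and 41 by state means. The 3′ UTR share was 49.3% and 55.0% in replicates 1 and 2 among peaks with a single region label. The median fold was 3.5 and 3.35 over lines and 3.78 and 3.65 over each gene's strongest peak. At least 1 DRACH was in 94.0% and 94.9% of peaks, and the exchanged motif came 18.9 and 17.8 times per kb. Members called under other settings are counted in this paragraph without the share of all genes called. Where not shown by the setting itself, the cause was not tested.

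With the replicate block, 98 members were higher in GM and 0 lower, given without the share of all genes called in that fit. Libraries with the same number shared only that number: their deviations correlated with r = 0.29 over 11406 genes, a value that 2 pairs fix for both.

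Differences near 0 that did not pass the test turned sign. *Alkbh8* was -0.20 under either rescaling and ran from -0.32 to 0.33 with a library left out. *Hoxa10* was -0.14 and -0.13 under median-of-ratios and trimmed-mean scaling and ran from -0.21 to 0.36. *Hspa1l* was -0.20 and -0.19 and ran from -0.14 to 0.16. *Zbtb48* ran from -0.081 to 1.02. With 2 libraries a state and unknown depth, small differences could not be detected.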
